A study of Mus musculus with 17 samples.

Results

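The messages of 9 enzymes that write, copy, oxidise or excise methylated cytosine were followed in mouse liver: Dnmt1, Dnmt3a, Dnmt3b, Uhrf1, Tet1, Tet2, Tet3, Tdg and Mbd4. They were chosen by symbol from the 48440 genes of the deposited table, by a rule that uses no measured value, although earlier results of these data were known when they were picked; each symbol matched 1 row. The series holds polyadenylated liver RNA from 6 libraries of B6 wild type at 2 months (WT_2mon), 5 of B6 wild type at 2 years (WT_2year) and 6 of miR-29 transgenics at 2 months (TG_2mon). B6 is the common black inbred laboratory strain. The sources used here do not give the strain of the transgenics, the construct, its promoter or the liver cells that carry it. The libraries came in 2 batches: batch A (10 libraries) was made with a TruSeq polyA kit at UNC and batch B (7 libraries, all male) with a directional NEBNext kit at Cornell. WT_2mon held 4 batch A and 2 batch B libraries, WT_2year 3 and 2, and TG_2mon 3 and 3. There were 12 male and 5 female libraries, and 1 of the females was transgenic. Nothing in the labels says that each library came from its own animal, so p-values measure the spread between libraries, which may be partly technical.

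In mammals a methyl group is placed mostly on cytosines that precede a guanine. DNMT3A and DNMT3B set new marks, while DNMT1, guided to freshly copied DNA by UHRF1, restores the marks on the daughter strand after replication. The TET enzymes oxidise methylcytosine step by step, and the glycosylase TDG removes the last oxidised forms so that base excision repair can put back an unmodified cytosine. MBD4 is a second glycosylase that removes thymine left when methylcytosine loses its amino group. DNMT3A, DNMT3B, the TET messages and TDG are known targets of miR-29, a microRNA family that lowers messages through matches to its seed. Adult hepatocytes rarely divide, so the copying enzymes are usually low in resting liver.

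The seed, bases 2 to 8 of the mature microRNA, is what pairs with a target, and it is shown in capitals below. It was the same in the 3 mature forms, which come from 4 loci, Mir29a and Mir29b-1 on chromosome 6 and Mir29b-2 and Mir29c on chromosome 1. The sequences are from RefSeq on GRCm38.p6, 5′ to 3′.
miR-29a-3p: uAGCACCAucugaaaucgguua
miR-29b-3p: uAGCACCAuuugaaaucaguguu
miR-29c-3p: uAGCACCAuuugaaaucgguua
The 4 precursor rows of the deposited table were at 0 in all 17 libraries, so the product of the transgene was not measured in these polyadenylated libraries. The design therefore offers no direct check of the transgenic label by its own message.

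Seed matches were searched on the sense strand of the longest annotated 3′ UTR of each gene (GENCODE M21, GRCm38). The 8-base match is TGGTGCTA, and the 7-base matches are TGGTGCT and GGTGCTA, both of which lie inside it; each position was counted once, under the longest form. Of all 20830 protein-coding 3′ UTRs of at least 30 bases, 16.19% held any match and 3.0% held 2 or more. Among the 9 enzymes, 6 held at least 1 match and together 34, of which 8 were TGGTGCTA, 21 TGGTGCT and 5 GGTGCTA. Tet3 held 10 matches in 5669 bases, Tet1 8 in 7962, Dnmt3a 6 in 6696, Tet2 5 in 3058, Tdg 3 in 2079 and Dnmt3b 2 in 1331. Of UTRs of like length, 0.1% held at least as many matches as Tet2 or Tet3, 0.3% as many as Tet1, 0.6% as many as Dnmt3a or Tdg, and 1.9% as many as Dnmt3b. Each of these shares counts the enzyme's own UTR. No match stood in the longest UTRs of Dnmt1 (312 bases), Uhrf1 (984 bases) and Mbd4 (1788 bases); joining all annotated UTRs of a gene added 1 match for Mbd4 and 1 for Dnmt3a. A match describes these letters and does not show that a message is bound.

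**Figure D1:**
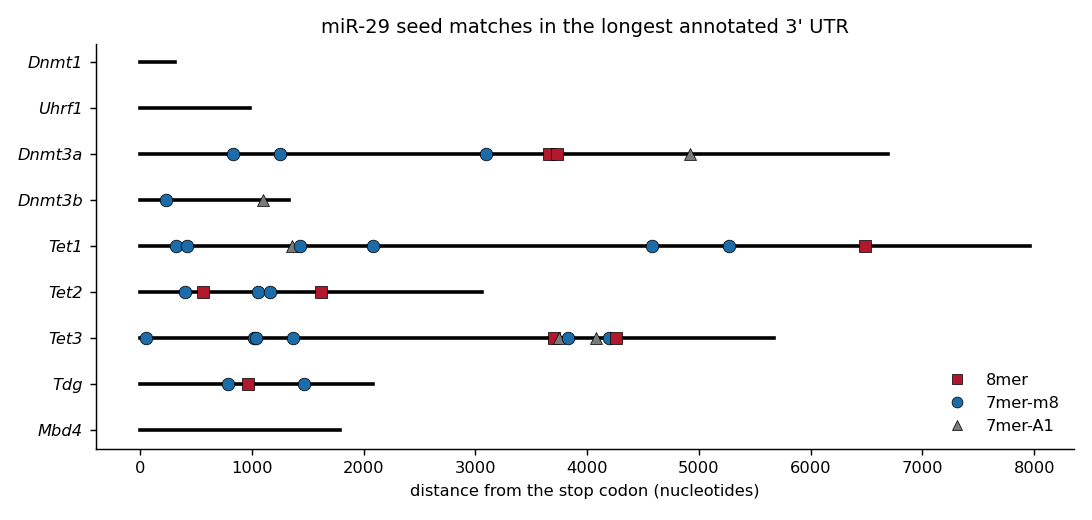
Positions of miR-29 seed matches along the longest annotated 3′ UTR of the 9 enzymes, in nucleotides from the stop codon; black lines are the UTRs, squares the 8-base matches, circles TGGTGCT and triangles GGTGCTA. Dnmt1, Uhrf1 and Mbd4 hold none, and Tet3 holds 10.

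The 8-base match is the longest form of seed pairing, so every one of them is shown here in a window of 22 bases, match in capitals, 5′ to 3′ on the gene's strand (GRCm38). The de novo methyltransferase Dnmt3b had none of 8 bases, and its TGGTGCT match, found in 10 of its 10 annotated UTRs, is given in its place.
Dnmt3a, chr12:3911391-3911412, plus strand: ccaggggaggtagcTGGTGCTA
Dnmt3a, chr12:3911460-3911481, plus strand: gcggggtcccaagcTGGTGCTA
Dnmt3b, chr2:153686613-153686634, plus strand: agagtagcccggcaTGGTGCTc
Tet1, chr10:62806042-62806063, minus strand: tttcttgaaggagaTGGTGCTA
Tet2, chr3:133466173-133466194, minus strand: gtgttaacattaaaTGGTGCTA
Tet2, chr3:133465116-133465137, minus strand: aattcacatcacgaTGGTGCTA
Tet3, chr6:83364336-83364357, minus strand: aatagtctaataaaTGGTGCTA
Tet3, chr6:83363777-83363798, minus strand: aggccgcttttagtTGGTGCTA
Tdg, chr10:82649663-82649684, plus strand: tcatgcattttccaTGGTGCTA
The 2 Dnmt3a matches lie close together in the middle of its long UTR, and annotated UTRs of 3 of its 6 transcripts contain them. Both Tet2 matches lie in each of its 2 annotated UTRs.

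Values are the authors' normalized counts, already scaled between libraries, and not raw reads. A library's values summed to between 28077001 and 44543936, but the number of reads behind them is unknown, so no counting interval can be given. The 2 batch B WT_2mon libraries stood apart from the rest in having the fewest genes above 0, 17147 and 17413 against 17908 to 20468 elsewhere. All 8 hepatocyte markers were detected, and Alb, the message of albumin, ran from 992461 to 4468552 normalized counts. In bulk liver RNA, fewer cells of a type and less RNA per cell cannot be told apart.

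Per kilobase of exon, Tdg was the most abundant of the 9 messages and Tet1 the least. The mean over 17 libraries was 92.3 normalized counts per kilobase for Tdg, 25.7 for Dnmt1, 21.7 for Dnmt3a and 17.7 for Tet3. It was 9.77 for Tet2, 8.70 for Uhrf1, 8.56 for Dnmt3b, 4.44 for Mbd4 and 0.30 for Tet1. Tdg stood above Dnmt1, Tet3 above Tet2 and Mbd4 above Tet1 in 17 of 17 libraries. Neighbouring levels that did not keep their order were Tet2 and Uhrf1 (in the order of their means in 14 of 17 libraries), Dnmt3b and Mbd4 (15 of 17), Dnmt1 and Dnmt3a (12 of 17), Dnmt3a and Tet3 (12 of 17), and Uhrf1 and Dnmt3b (5 of 17, Dnmt3b being higher in the rest although the mean of Uhrf1 is larger). By length of the longest transcript, Dnmt3a ranked above Dnmt1 at 37.3 against 32.2. The least abundant message, Tet1, had a per-length level above 0.0% (rounded) of the 14553 tested genes with a known length, and Tdg lay above 54.5% of them.

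The 3 comparisons share libraries: WT_2mon is the reference of both the age and the transgene comparison. Each gene was tested with limma on log2(normalized count + 1) with batch and sex as terms, over 14588 genes with a mean of at least 10, and called at an adjusted p (Benjamini-Hochberg over all genes tested) under 0.05. Tet1 did not reach that mean, so 8 of the 9 enzymes were tested. With age, 0 of 8 were called, where 0.144% of all genes were (21 genes). With the transgene, 0 of 8 were called, where 6.71% of all genes were (979 genes). Between TG_2mon and WT_2year, which differ in age and genotype at once, 0 of 8 were called, where 2.55% of all genes were (372 genes). The authors' deposited comparison tables, made with another model, called 0 of 8 with age, where 1.77% of 15814 genes were, and 1 of 8 with the transgene, Uhrf1, where 14.1% of 15714 genes were. At an unadjusted p under 0.05 the counts were 0, 1 (Uhrf1) and 1 (Tet2) of 8, beside 8.73%, 21.2% and 15.3% of all genes. No enzyme had groups free of overlap over all libraries, a state reached by 0.61%, 2.95% and 1.82% of genes in the 3 comparisons.

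**Figure D2:**
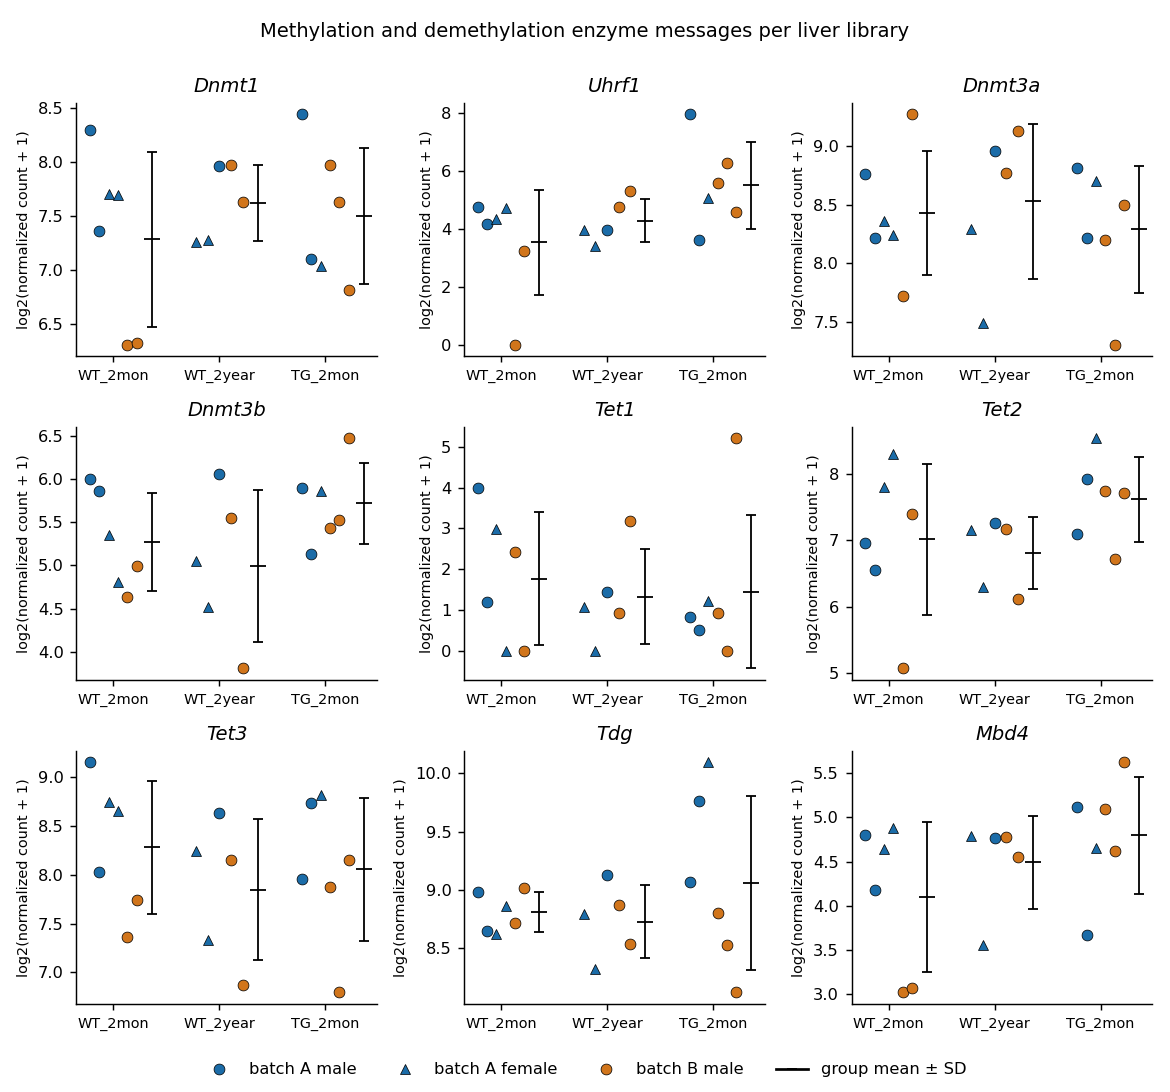
log2(normalized count + 1) of the 9 enzymes in each library, by group; circles are males, triangles females, blue batch A, orange batch B, and bars the group mean ± SD. The scales differ between panels, the groups overlap for all 9 enzymes, and the 2 orange WT_2mon points are the lowest for Dnmt1, Uhrf1 and Mbd4.

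Uhrf1 had the widest difference of the set between young transgenic and young wild-type liver, with 1 very high transgenic library and low values in both batch B wild-type libraries. UHRF1 recognises hemimethylated DNA behind the replication fork and recruits DNMT1 (chr17:56303321-56323486, plus strand). In WT_2mon its normalized counts ran from 0 through a median of 17.9 to 25.8, and in TG_2mon from 11.04 through 39.1 to 244. In WT_2year the 5 libraries had 14.5, 9.66, 14.5, 25.8 and 38.7. The high library was TG_2mon replicate 1, at 244 against 74.96 in the next, and TG_2mon replicate 2 lay at 11.04, below 4 of the 6 WT_2mon libraries. The log2 fold change with the transgene was 2.04 ± 0.80 (SE; 95% interval 0.34 to 3.73; limma adjusted p = 0.147), and with age 0.82 ± 0.83 (limma adjusted p = 0.75). The authors' deposited table gave 2.54 ± 0.68 for the transgene with an adjusted p of 0.0028, and 0.49 ± 0.67 with age (adjusted p of 0.795 in the authors' deposited table). The transgene value of the limma fit was 1.54 (adjusted p = 0.269) without TG_2mon replicate 1 and 1.19 (adjusted p = 0.367) without WT_2mon replicate 5, which is at 0.

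Within batches, Uhrf1 gave different readings. In batch B, TG_2mon stood at 46.2, 74.96 and 22.9 and WT_2year at 25.8 and 38.7, all above the WT_2mon libraries at 0 and 8.39. In batch A, WT_2mon ran from 16.9 to 25.8, all 3 WT_2year libraries lay below it at 9.66 to 14.5, and TG_2mon spread on both sides of it at 244, 11.04 and 32.1. The log2 fold change with the transgene was 0.998 ± 0.86 in batch A (limma adjusted p = 0.553) and 3.85 ± 0.99 in batch B (limma adjusted p = 0.0915). With age it was -0.67 ± 0.86 in batch A (limma adjusted p = 1) and 3.41 ± 1.08 in batch B (limma adjusted p = 0.133). The difference between batches was 4.08 ± 1.45 for the age effect (limma interaction, adjusted p = 0.14) and 2.85 ± 1.38 for the transgene effect (adjusted p = 0.333 by limma). With both batch B WT_2mon libraries left out, a choice made after their values were seen, the transgene value was 0.71 ± 0.72 (limma adjusted p = 0.676) and the age value -0.38 ± 0.72.

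Dnmt1, the maintenance methyltransferase (chr9:20907209-20959888, minus strand), did not differ between the groups beyond their spread. Its normalized counts in WT_2mon ran from 78.3 through a median of 185 to 313, and in TG_2mon from 112 through 167 to 346. In WT_2year the values were 152, 154, 248, 250 and 197. All 3 groups overlapped, and the old livers lay inside the range of the young ones. Fitted log2 differences were 0.41 ± 0.35 with age (limma adjusted p = 0.706) and 0.25 ± 0.34 with the transgene (limma adjusted p = 0.741; 95% interval -0.47 to 0.96). The 2 lowest values of the series were again the batch B WT_2mon libraries, at 78.3 and 79.1, so the transgene value was 1.16 ± 0.41 in batch B (limma adjusted p = 0.18) and -0.32 ± 0.37 in batch A. With age it was 1.48 ± 0.45 in batch B (limma adjusted p = 0.131) and -0.19 ± 0.37 in batch A.

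The low batch B pair was also seen in Mbd4, in a batch where groups without overlap, in either direction, were common among genes. Within batch B the age groups did not overlap for 3 of 8 enzymes (Dnmt1, Uhrf1 and Mbd4, all higher in WT_2year), nor for 61.8% of all genes in either direction. The transgene groups of batch B did not overlap for 4 of 8 (the same 3 and Dnmt3b, all higher in TG_2mon), nor for 42.2% of genes. Within batch A the age groups did not overlap for 1 of 8 (Uhrf1, lower in WT_2year; 6.06% of genes), and the transgene groups for 1 of 8 (Tdg, higher in TG_2mon; 17.5% of genes). Between TG_2mon and WT_2year the groups did not overlap for 0 of 8 in batch A (15.5% of genes) and for 1 of 8 in batch B (Dnmt3a, lower in TG_2mon; 26% of genes).

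**Figure D3:**
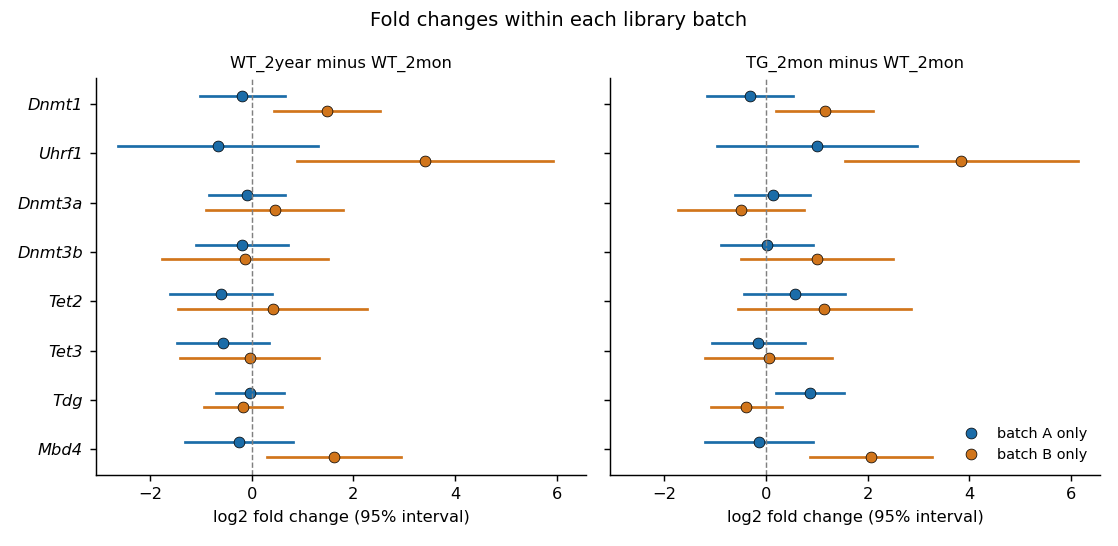
log2 fold changes (points) with 95% intervals (lines) of the 8 tested enzymes, fitted within batch A (blue) and within batch B (orange), for age on the left and the transgene on the right. Uhrf1, Dnmt1 and Mbd4 lie above 0 in batch B in both panels and not in the age panel of batch A, and Tdg lies above 0 with the transgene in batch A only, at 0.86 against -0.39 in batch B.

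The maintenance pair varied together over libraries, and the 2 transgenic libraries highest in Uhrf1 were also highest in genes of dividing cells. Once batch and sex were removed, Dnmt1 and Uhrf1 had a Pearson r of 0.72 over 17 libraries, Dnmt1 and Mbd4 0.68, and Uhrf1 and Mbd4 0.72; of the 28 pairs of tested enzymes, 4 exceeded 0.6, the other being Tet2 and Tet3 at 0.68. These are descriptions over libraries that share batches and groups, and the share of all gene pairs above 0.6 was not computed. Dnmt1, Uhrf1 and Mbd4 each had their 2 lowest values in the batch B WT_2mon libraries. Removing batch as 1 shift per batch leaves that shared low pair in place. The genes most like Uhrf1 among all tested were Kif2c, a mitotic kinesin (r = 0.90), Rad51ap1, a recombination factor (0.89), and Ap1s3 (0.89). The summed normalized count of 20 proliferation genes was 7266 in TG_2mon replicate 1, the library with the Uhrf1 value of 244, and 1174 to 3826 in the other 16. In that library Mki67 stood at 271 and Top2a at 178, and it also had the highest Dnmt1 (346) of the series. TG_2mon replicate 5, the second in Uhrf1, had the second highest proliferation sum, 3826, and the highest Mki67, 321, with a Dnmt1 of 197. The 2 lowest Uhrf1 values did not come with the lowest sums. WT_2mon replicate 5, with Uhrf1 at 0, had a sum of 1679, and WT_2mon replicate 6, with Uhrf1 at 8.39, had 2512. Over the groups, 0 of 19 tested proliferation genes were called with age or with the transgene, with a median log2 fold change of 0 and 0.23 beside -0.003 and 0.006 for all genes. The smallest p belonged to the replication helicase subunits Mcm2 with age (1.32 ± 0.68, limma adjusted p = 0.586) and Mcm4 with the transgene (1.01 ± 0.35, limma adjusted p = 0.0936). The part of dividing cells in the Uhrf1 values was not tested.

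**Figure D4:**
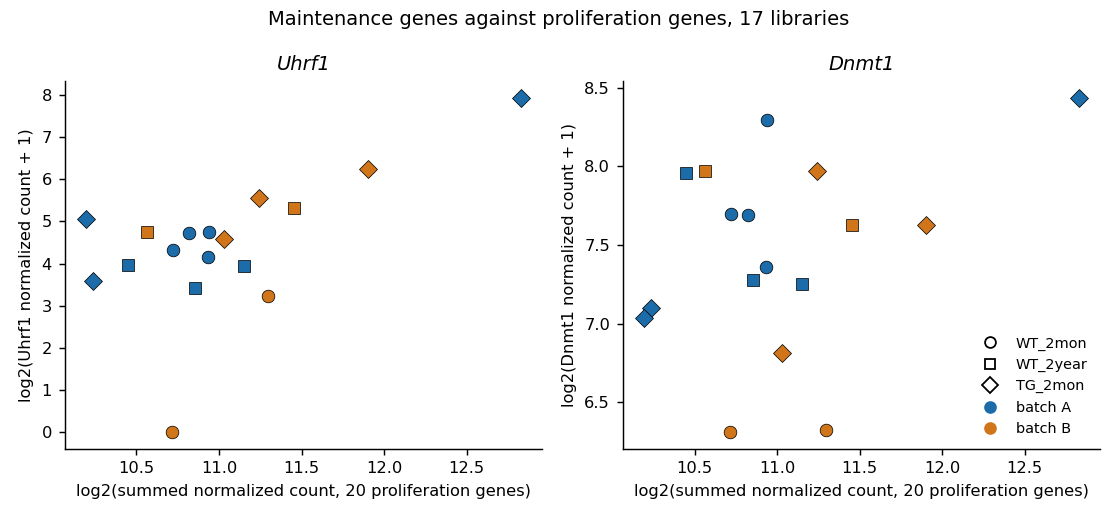
log2(normalized count + 1) of Uhrf1 (left) and Dnmt1 (right) against log2 of the summed normalized count of 20 proliferation genes in 17 libraries; symbols mark the groups and colours the batches. TG_2mon replicate 1, a batch A library, is the highest on both axes in both panels.

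The partners of the maintenance pair were not called. Of 13 tested genes of this list, which include Pcna, the clamp of the replication fork, Hells and Cdca7, a chromatin remodeller and its activator, and the deubiquitinase Usp7, 0 were called with age, with the transgene or between TG_2mon and WT_2year. The medians of their log2 fold changes were -0.08 with age and 0.12 with the transgene, beside -0.003 and 0.006 over all genes. The smallest p belonged to Hdac2, a histone deacetylase, with age (-0.47 ± 0.22, limma adjusted p = 0.557) and to Lig1, the replicative DNA ligase, with the transgene (0.50 ± 0.39, limma adjusted p = 0.506). In transgenic against old liver it belonged to Usp7, at 0.43 ± 0.20 (limma adjusted p = 0.311).

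The de novo enzymes Dnmt3a and Dnmt3b, both with miR-29 matches, were not lower in transgenic liver beyond the spread between libraries. Dnmt3a (chr12:3806007-3914443, plus strand) ran from 211 through a median of 315 to 616 normalized counts in WT_2mon and from 158 through 329 to 448 in TG_2mon. Old livers had 312, 179, 497, 435 and 558. The 3 ranges overlapped over most of their width, and both ends of the WT_2mon range came from batch B. Dnmt3a had a log2 fold change of -0.18 ± 0.32 with the transgene (95% interval -0.86 to 0.49; limma adjusted p = 0.805) and 0.14 ± 0.33 with age (limma adjusted p = 0.899). Within batches the transgene value was 0.13 ± 0.33 in A and -0.50 ± 0.53 in B. Between TG_2mon and WT_2year it was -0.32 ± 0.34 (limma adjusted p = 0.708), and in batch B the 3 TG_2mon libraries, at 158 to 360, lay below both WT_2year libraries, at 435 and 558.

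Dnmt3b (chr2:153649450-153687730, plus strand) had normalized counts of 23.8 through a median of 35.2 to 62.7 in WT_2mon and 34.0 through 51.1 to 87.5 in TG_2mon. At 2 years the libraries stood at 32.1, 21.8, 65.6, 45.9 and 13.0. Transgenic values reached highest and old values lowest, with wide overlap of all 3 groups. The fitted log2 fold change with the transgene was 0.45 ± 0.37 (95% interval -0.33 to 1.24; limma adjusted p = 0.535). In batch A alone it was 0.02 ± 0.40 (95% interval -0.88 to 0.93), in batch B 0.995 ± 0.64, and without TG_2mon replicate 6 it was 0.27 over all libraries. With age it was -0.20 ± 0.39 (limma adjusted p = 0.873), and between TG_2mon and WT_2year 0.65 ± 0.39 (limma adjusted p = 0.458).

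The TET messages showed no called difference, although Tet2 was the member with the smallest p between transgenic and old liver. Tet2 (chr3:133463679-133545139, minus strand), the family member without a DNA-binding zinc finger of its own, ran from 32.6 through a median of 145 to 313 in WT_2mon and from 104 through 209 to 368 in TG_2mon. The old group had 142, 77.9, 152, 143 and 68.6 normalized counts. In TG_2mon, 4 of 6 libraries lay above all 5 old libraries, and the other 2 among them. The log2 fold change between TG_2mon and WT_2year was 0.997 ± 0.43 (limma p = 0.0336, adjusted p = 0.274), with 1.17 ± 0.48 in batch A and 0.74 ± 0.73 in batch B. With the transgene it was 0.76 ± 0.41 (limma adjusted p = 0.302), the authors' deposited table giving 0.76 ± 0.37 with an adjusted p of 0.163, and with age -0.23 ± 0.42 (limma adjusted p = 0.864). Without WT_2mon replicate 5, the library at 32.6, the transgene value was 0.36.

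Tet3 (chr6:83362373-83459084, minus strand), with the most seed matches of the 9, ran from 163 through a median of 331 to 567 normalized counts in WT_2mon and from 110 through 265 to 451 in TG_2mon. In the 5 old livers it was 302, 160, 395, 284 and 116. The groups overlapped, and low values in all 3 were mostly from batch B: the log2 difference of batch B from batch A was -0.90 ± 0.32 (limma adjusted p = 0.0329), the only batch term called among the 8 enzymes, beside 42.7% of all genes. Tet3 had a log2 fold change of -0.09 ± 0.32 with the transgene (95% interval -0.77 to 0.59; limma adjusted p = 0.909) and -0.37 ± 0.33 with age (limma adjusted p = 0.725). None of the 8 enzymes was called between the sexes, where 0.26% of genes were.

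Tet1 (chr10:62804570-62908996, minus strand), which is abundant in embryonic stem cells, was near 0 in most livers. It ran from 0 through a median of 2.83 to 14.99 normalized counts in WT_2mon and from 0 through 0.83 to 35.96 in TG_2mon, and the WT_2year libraries had 1.10, 0, 1.69, 0.91 and 8.0. A single transgenic library, replicate 6 of batch B, held the value of 35.96, and the other 5 had at most 1.32. In a fit of all 26631 genes with a mean above 0, the log2 fold change of Tet1 was -0.43 ± 0.92 with age (limma adjusted p = 0.915) and -0.45 ± 0.89 with the transgene (limma adjusted p = 0.855). Its 8 seed matches therefore stand in a message that these libraries hardly held.

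Of the 2 glycosylases, Tdg was high in 2 batch A transgenic livers and was not called. TDG (chr10:82629828-82650799, plus strand) excises formylcytosine and carboxylcytosine. Its normalized counts ran from 392 through a median of 443 to 516 in WT_2mon (450 ± 53.3, SD, n = 6) and from 277 through 490 to 1091 in TG_2mon (597 ± 316, SD, n = 6). The WT_2year libraries had 443, 319, 558, 465.8 and 370. The 3 batch A transgenic libraries, at 536, 866 and 1091, lay above the 4 batch A WT_2mon libraries, which ended at 504, while the batch B ones, at 444.3, 367 and 277, reached lower than their controls at 421 and 516. The log2 fold change with the transgene was 0.31 ± 0.26 over all libraries (limma adjusted p = 0.55), 0.86 ± 0.29 in batch A (limma adjusted p = 0.145) and -0.39 ± 0.30 in batch B (limma adjusted p = 0.497). The difference between batches was -1.25 ± 0.44 (limma interaction, adjusted p = 0.186), and 73 of 14588 genes had a transgene effect called as different between batches. Without TG_2mon replicate 3, the library at 1091 and the 1 transgenic female, the value over all libraries was 0.02 ± 0.23. With age Tdg had -0.04 ± 0.27 (limma adjusted p = 0.971). Tdg shares 367 exon bases with Glt8d2 on the opposite strand, but that gene's mean was 4.80 normalized counts.

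Mbd4 (chr6:115840697-115853371, minus strand) followed the maintenance pair in the batch B controls. It ran from 7.12 through a median of 20.5 to 28.4 in WT_2mon and from 11.7 through 28.7 to 48.3 in TG_2mon, and the WT_2year libraries had 26.8, 10.8, 26.3, 26.4 and 22.4. The 2 lowest values were the batch B WT_2mon libraries at 7.12 and 7.42, and the groups overlapped over all libraries. Fitted log2 differences were 0.74 ± 0.45 with the transgene (limma adjusted p = 0.374) and 0.40 ± 0.46 with age (limma adjusted p = 0.78). In batch A alone the transgene value was -0.14 ± 0.47 and in batch B 2.06 ± 0.52 (limma adjusted p = 0.0875), a difference of 2.20 ± 0.73 (limma interaction, adjusted p = 0.16).

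**Figure D5:**
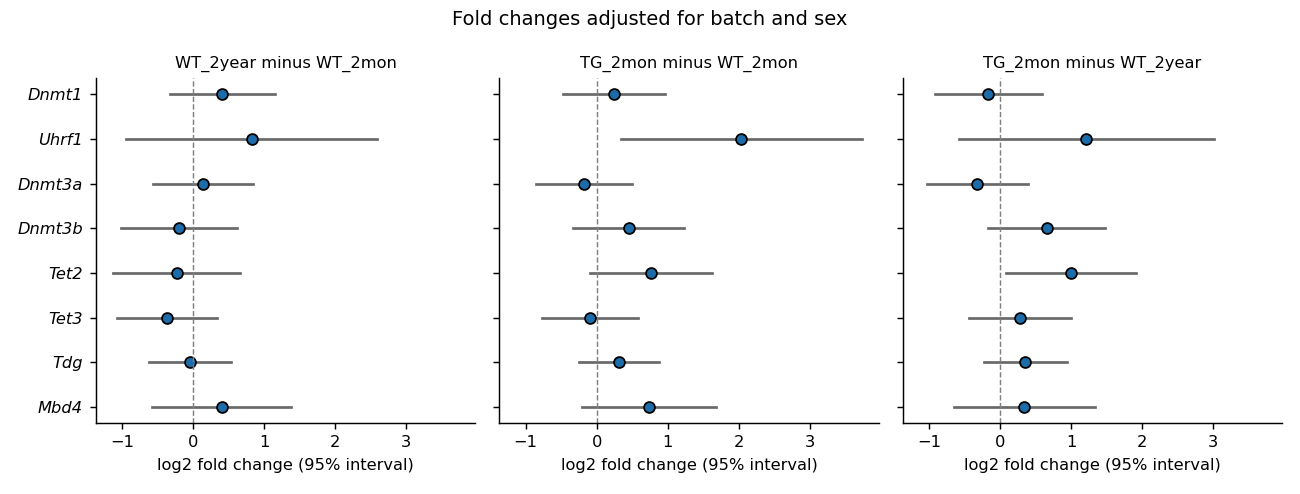
log2 fold changes (points) with 95% intervals (lines) of the 8 tested enzymes, adjusted for batch and sex, in the age comparison, the transgene comparison and TG_2mon against WT_2year. Most intervals contain 0; those of Uhrf1 with the transgene and of Tet2 between TG_2mon and WT_2year do not, with adjusted p values of 0.147 and 0.274.

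Set beside their seed matches, the 5 tested enzymes with a match had fitted transgene values from -0.18 to 0.76 with a median of 0.31, and 3 of the 5 were above 0. The 3 without a match had 0.25 to 2.04, all above 0, but these are Dnmt1, Uhrf1 and Mbd4, whose lowest values are the batch B WT_2mon pair, and in batch A alone they had -0.32, 0.998 and -0.14. In batch A alone the 5 with a match had 0.13 (Dnmt3a), 0.02 (Dnmt3b), 0.56 (Tet2), -0.15 (Tet3) and 0.86 (Tdg). With age, the 5 with a match had -0.37 to 0.14 with a median of -0.20, and the 3 without had 0.40 to 0.82, which in batch A alone were -0.19 for Dnmt1, -0.67 for Uhrf1 and -0.25 for Mbd4. Those with a match ran from -0.61 (Tet2) to -0.03 (Tdg) with age in batch A alone. None of these values passed the test, and the 2 groups of enzymes also differ in function. Among 16 established targets of miR-29 in textbook lists, 2 (12.5%, beside 6.71% of all genes called) fell with the transgene: Col1a1, a chain of fibrillar collagen, at -1.88 ± 0.46 (limma adjusted p = 0.02; 302 ± 115 in WT_2mon and 91.2 ± 58.1 in TG_2mon, SD, n = 6 each), and the growth factor Igf1, at -0.92 ± 0.22 (limma adjusted p = 0.016). Igf1 ran from 11388 to 18351 normalized counts in WT_2mon and from 5403 to 10926 in TG_2mon, without overlap. None of the 16 rose with the transgene, and their median log2 fold change was -0.04 beside 0.006 for all genes. With age 0 of 16 were called, Col1a2 having the smallest p at -1.12 ± 0.28 (limma adjusted p = 0.156). Between TG_2mon and WT_2year, Igf1 was called as lower at -1.08 ± 0.23 (limma adjusted p = 0.0166).

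Of the genes that act with the TET enzymes and glycosylases, 3 were called with the transgene and 0 with age. Of 11 tested TET partners, 2 rose with the transgene (18.2%, beside 6.71% of all genes called): Idh3a, a subunit of a mitochondrial isocitrate dehydrogenase, at 0.77 ± 0.17 (limma adjusted p = 0.0101), and Gadd45b, a stress-induced adaptor of repair-based demethylation, at 1.76 ± 0.47 (limma adjusted p = 0.0323). Idh3a ran from 719 to 1085 normalized counts in WT_2mon and from 1014 to 2185 in TG_2mon, with overlap. Of 15 tested base excision repair genes 1 rose (6.67%, near the 6.71% of all genes), Ung, the uracil glycosylase, at 0.91 ± 0.26 (limma adjusted p = 0.044); its means were 166 ± 76.7 (SD, n = 6) in WT_2mon and 341 ± 107 (SD, n = 6) in TG_2mon. The median log2 fold change was 0.18 for the TET partners and -0.02 for base excision repair, beside 0.006 for all genes. With age 0 of 11 and 0 of 15 were called, the smallest p being those of Gadd45a (0.96 ± 0.52, limma adjusted p = 0.598) and Xrcc1, the scaffold of single-strand break repair (-0.60 ± 0.25, limma adjusted p = 0.535). Between TG_2mon and WT_2year 0 were called in both lists, the smallest p being those of Idh3a (0.67 ± 0.18, limma adjusted p = 0.0564) and Apex1, the endonuclease that cuts abasic sites (-0.75 ± 0.29, limma adjusted p = 0.206).

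The methyl donor of all DNMT reactions, S-adenosylmethionine, is made in liver mainly by the enzyme encoded by Mat1a, and that message rose with the transgene. Its normalized counts ran from 55347 to 118852 in WT_2mon and from 193077 to 352696 in TG_2mon, without overlap. The WT_2year libraries had 136785, 127314, 289692, 211340 and 59857, spanning both young groups. Mat1a had a log2 fold change of 1.81 ± 0.33 with the transgene (limma adjusted p = 0.00259) and 0.91 ± 0.34 with age (limma adjusted p = 0.488). Nnmt, which spends methyl groups on nicotinamide, also rose with the transgene, at 1.60 ± 0.43 (limma adjusted p = 0.0352), with 5251 to 23409 normalized counts in WT_2mon and 16855 to 97201 in TG_2mon. These were 2 of 17 tested genes of the donor cycle (11.8%, beside 6.71% of all genes called), none fell, and their median was 0.26 with the transgene and 0.20 with age, where 0 of 17 were called. Nnmt also had the smallest p of the cycle between TG_2mon and WT_2year, at 1.48 ± 0.46 (limma adjusted p = 0.105).

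Readers of methylated DNA and cytosine deaminases were not called. Of 7 methyl-CpG readers, 0 were called in any of the 3 comparisons. The smallest p was that of Mbd1 with the transgene (-0.995 ± 0.34, limma adjusted p = 0.0888) and between TG_2mon and WT_2year (-0.63 ± 0.36, limma adjusted p = 0.423). Of the 4 listed deaminases, 2 passed the filter and neither was called. Apobec1, the editing enzyme of apolipoprotein B message, had -0.76 ± 0.28 with the transgene (limma adjusted p = 0.124).

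Markers of other cell types moved with the transgene beside these values. Of 10 neutrophil markers 9 rose, and their summed normalized count ran from 30.1 to 498 in WT_2mon, from 102 to 2249 in WT_2year and from 451 to 48371 in TG_2mon. Of 5 tested erythroid markers 3 rose, with sums of 1021 to 8630 in WT_2mon, 998 to 3767 in WT_2year and 2496 to 8579 in TG_2mon. The sums of 10 Kupffer cell and macrophage markers were 9209 to 16227, 9174 to 34027 and 6094 to 56278 in the same order, and 2 of the 10 rose. None of the markers of these 3 lists was at 0 in every library. Of the other marker lists, called genes with the transgene were Ighm of 6 tested B cell markers, Stab2 of 7 endothelial ones, both higher, and Col1a1 of 8 stellate cell and Spp1 of 5 bile duct ones, both lower, while 0 of 8 hepatocyte and 0 of 7 T and NK cell markers were called. With age, Ighm alone was called of all marker lists, at 3.27 ± 0.42 (limma adjusted p = 0.0066). The part of such cells in the values of the enzymes was not tested.

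For the other tested enzymes, the genes with the most similar profile over the 17 libraries, once batch and sex were removed, were as follows. Dnmt1 was closest to Adam17 (r = 0.88), Adgra2 (0.87) and Dopey2 (0.855), and Mbd4 to Gm11847 (0.88), Cep128 (0.87) and Nol4l (0.86). Dnmt3a was closest to Gm6483 (r = 0.815), Gm10392 (0.79) and Unc5b (0.79), and Dnmt3b to Tsc1 (0.88), Chka (0.88) and Fam217b (0.85). Tet2 was closest to Taf1 (r = 0.91), Diaph2 (0.90) and Zfp865 (0.90), Tet3 to Med13l (0.91), Kat6b (0.90) and Chd4 (0.90), and Tdg to Dnajc10 (0.94), Polr1b (0.94) and Tmem161b (0.93). With 17 points and 14588 genes these are the ends of a long ranking. They are given as descriptions.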

How the data were processed

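Polyadenylated RNA of 17 liver libraries was measured in groups and batches taken from the labels. The submitters' processing notes name the tools DESeq2, Salmon (0.6.0) and STAR (2.5.3a) and the build mm10, without roles; the sources used here give neither annotation nor strandedness of the counting. The main table is normalized signal for each gene, which the authors deposited under the name of DESeq2 normalized counts. A step was sought that best fitted a part of each library's values under 20. At the best step, between 61.0% and 73.5% of that part lay within 0.1 of a whole step. Whole reads were therefore not recovered and depth is unknown. Per the file headers, 2 further deposited tables of comparisons hold log2 fold changes, their standard errors, test scores, p-values and adjusted p-values.

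limma 3.58.1 in R 4.3.3 was fitted to log2(value + 1) of the 14588 genes with a mean of at least 10, with group, batch and sex as terms, all 17 libraries sharing one spread (eBayes with trend). Genes were called at a two-sided adjusted p under 0.05, and "rose" and "fell" are used only of these. Adding 1 before the logarithm makes fold changes of low genes appear smaller. The self-test on simulated data was run before the fit. Gene names came from the deposited table (48058 of 48440 identifiers were found in a reference). GENCODE M21 on GRCm38, the assembly mm10 names, gave exons and 3′ UTRs, counted from 1.

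The enzymes and the 17 related lists were chosen with earlier results of these data known. Named genes were the 9 enzymes, up to 4 called genes of a list per comparison or otherwise that with the smallest p, and the 3 closest profiles per enzyme. Replicate numbers of the labels were not used as pairs in the main fit. The 16 same-numbered pairs had correlations of -0.316 to 0.384, 7 above 0.1. Without differently numbered pairs beside them, these values cannot show whether the numbers pair libraries. Alternatives covered pseudocount, filter, scaling, terms, sex, batch, left-out libraries and the authors' deposited tables. Results of some listed genes are not reported here.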

Additional observations from a re-analysis of the deposited data

Results flagged for a closer look

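Several values stood far from the rest of their group. Of 27 groups of 5 or 6 libraries (9 enzymes in 3 groups), 4 held a library whose gap to its nearest neighbour was large for the group's range (Dixon's test at 95%). The test was run on normalized counts without a logarithm. Its chance rate of about 1 in 20 groups holds for normally distributed values, so the 4 are not shown to exceed chance. Uhrf1 was 244.03 normalized counts in TG_2mon replicate 1, the library that also had the highest proliferation sum. Tet1 was 35.96 in TG_2mon replicate 6 and 8.0 in WT_2year replicate 5, both in batch B, in a message near 0 elsewhere. Mbd4 was 10.8 in WT_2year replicate 2, the lowest old library, which also had the lowest old Uhrf1 (9.66) and Dnmt3a (179).

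The age effect of Uhrf1 had opposite signs in the 2 batches, every old library lying below the young ones in batch A and above them in batch B. The difference was 4.079 on the log2 scale (limma interaction, adjusted p = 0.14), so it did not pass the adjusted threshold. The age effect over all libraries, 0.82, was -0.38 when both batch B WT_2mon libraries were left out, which leaves batch B without young controls.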

How the results depend on the processing

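No enzyme was called in any of the limma settings tried. The authors' deposited table called 1, Uhrf1 with the transgene (2.54). A floor on the mean of 50 leaves out Uhrf1, Dnmt3b and Mbd4 and gives them no value. The number of genes called with age (21) was 9 with a floor of 50, 9 with batch as the only term, 5 with no covariates, 41 in males, 1 in batch A, 0 in batch B, 2 without both batch B WT_2mon libraries and 280 in the authors' table. With the transgene (979) it was 421 with no covariates, 495 in batch A, 263 in batch B, 499 without both batch B WT_2mon libraries and 2211 in the authors' table. Between TG_2mon and WT_2year (372) it was 139 with no covariates, 175 in males, 175 in batch A and 45 in batch B. Leaving out each library in turn gave 9 to 37, 653 to 1311 and 161 to 525 genes; the lowest age count came without WT_2year replicate 2 and the highest without TG_2mon replicate 3, and the lowest count between TG_2mon and WT_2year without WT_2year replicate 5.

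With the replicate number as a block the counts were 11 with age and 247 between TG_2mon and WT_2year, the age value of Tet2 turned to 0.038, and Uhrf1 with the transgene was 2.15 (limma adjusted p = 0.191).

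Some log2 fold changes changed sign, none of them called, including sizeable ones (Uhrf1 with age, 0.82, and Mbd4 with the transgene, 0.74, over all libraries); the cause was not tested. With age, batch A alone gave -0.19 for Dnmt1, -0.093 for Dnmt3a, -0.67 for Uhrf1 and -0.25 for Mbd4; Tet2 was 0.42 in males and 0.41 in batch B; and Tdg was 0.10 with equal totals and 0.081 in males. Without both batch B WT_2mon libraries, added after seeing the data, age gave -0.14 for Dnmt1, -0.38 for Uhrf1, 0.23 for Tdg and -0.33 for Mbd4, and the transgene -0.36 for Dnmt1 and -0.06 for Mbd4. With the transgene, batch A alone gave -0.32 for Dnmt1, 0.13 for Dnmt3a and -0.14 for Mbd4, batch B alone 0.054 for Tet3 and -0.39 for Tdg, and equal totals 0.042 for Tet3. Between TG_2mon and WT_2year, Dnmt3a was 0.22 in batch A, Tet3 -0.046 and Tdg -0.02 in males, and Tdg -0.22 in batch B. Leaving out single libraries moved age values from -0.039 to 0.37 for Dnmt3a, -0.43 to 0.091 for Dnmt3b, -0.60 to 0.048 for Tet2 and -0.14 to 0.10 for Tdg. It moved transgene values from -0.41 to 0.038 for Dnmt3a and -0.23 to 0.07 for Tet3, and Dnmt1 between TG_2mon and WT_2year from -0.32 to 0.006.

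Depth is unknown, so how far it limits Tet1, Mbd4, Uhrf1 and Dnmt3b, the lowest messages, cannot be given.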
